A study of Mus musculus with 6 samples.

Results

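The carboxylesterase family of the mouse liver was followed in control and g*Spns1*-cKO animals through 10 of its genes, namely *Ces1b*, *Ces1c*, *Ces1d*, *Ces1e*, *Ces1f*, *Ces1g*, *Ces2a*, *Ces2e*, *Ces3a* and *Ces3b*. They were taken by gene name from the 54532 genes of the deposited table, which lists 20 carboxylesterase genes in all. RNA from whole liver was sequenced as 1 library per mouse, from 3 control and 3 g*Spns1*-cKO mice. The g*Spns1*-cKO mice were *Spns1* fl/fl animals, in which exon 3 lies between loxP sites, with Rosa26Cre-ERT2, a tamoxifen-dependent recombinase made in the whole body, so that the deletion was not limited to hepatocytes. Tamoxifen was injected intraperitoneally in the first weeks after birth, and the mice were C57BL/6. The methods use *Spns1* fl/fl littermates as controls for such mice, whereas the sample labels read WT for the control livers and SPNS1 KO for the others. The sources used here do not give the age or sex of these 6 animals, or whether these controls received tamoxifen.

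Carboxylesterases are serine hydrolases that cleave ester and amide bonds in drugs, pesticides and neutral lipids. Most of the hepatic enzymes stay in the lumen of the endoplasmic reticulum of hepatocytes, held there by a retrieval signal at the C terminus, and a few are secreted into plasma. *Ces1d*, also called triacylglycerol hydrolase, releases fatty acids from stored triacylglycerol for the assembly of very low density lipoprotein (VLDL), and *Spns1* encodes a lysosomal exporter of lysophospholipids.

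All the members lie on chromosome 8 of mm10 (GRCm38), in a pair of gene clusters. The Ces1 cluster spans 515.6 kb (chr8:93020214-93535830) and holds 9 carboxylesterase genes on the minus strand, of which *Ces1b* to *Ces1g* are members. The other cluster spans 416.1 kb (chr8:104734003-105150109) and holds 11 on the plus strand, from *Ces2a* to *Ces4a*. Coding sequences were 74.5% to 95.3% identical between members of a subfamily (17 pairs) and 62.9% to 65.3% identical between subfamilies (28 pairs). *Ces3a* and *Ces3b* were the closest pair at 95.3%, followed by *Ces1b* and *Ces1c* at 91.1%, and *Ces2a* and *Ces2e* were 83.3% identical.

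The stretch around the catalytic serine is shown because every member holds the motif, which is that of the serine hydrolases. It lay in exon 5 of every member. The capitals mark the codons of the glycine-X-serine-X-glycine motif and of the glycine after it, in reading direction. *Ces1d*, *Ces1e* and *Ces1f* had identical codons there, as had *Ces3a* and *Ces3b*, so that 1 member of each distinct set is printed. The stretches of *Ces1b* (chr8:93071873-93071914), *Ces1c* (chr8:93123106-93123147), *Ces1f* (chr8:93269980-93270021) and *Ces1g* (chr8:93328384-93328425) are on the minus strand of GRCm38. Those of *Ces2a* (chr8:104737398-104737439), *Ces2e* (chr8:104929803-104929844) and *Ces3b* (chr8:105086664-105086705) are on the plus strand. The codon between the first glycine and the serine differed between *Ces1c*, *Ces1b*, *Ces2a* and *Ces3b*, and was the same in *Ces1c*, *Ces1f*, *Ces1g* and *Ces2e*.
Ces1b: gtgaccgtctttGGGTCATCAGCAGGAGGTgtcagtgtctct
Ces1c: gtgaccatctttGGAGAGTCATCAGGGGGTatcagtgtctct
Ces1f: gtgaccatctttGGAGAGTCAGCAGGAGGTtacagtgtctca
Ces1g: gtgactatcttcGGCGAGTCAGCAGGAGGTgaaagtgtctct
Ces2a: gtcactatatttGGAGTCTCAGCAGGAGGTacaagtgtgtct
Ces2e: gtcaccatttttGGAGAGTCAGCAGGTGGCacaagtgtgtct
Ces3b: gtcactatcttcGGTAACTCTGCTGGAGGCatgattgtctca

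The last codons are shown because the retrieval signal of the endoplasmic reticulum, where a member has it, lies there. The capitals mark the last 4 codons, followed by the stop codon. Codons for histidine, any residue, glutamate and leucine ended *Ces1d*, *Ces1e*, *Ces1f*, *Ces1g*, *Ces2a* and *Ces2e*, and did not end *Ces1b*, *Ces1c*, *Ces3a* or *Ces3b*. The *Ces3a* and *Ces3b* ends were identical over all 27 bases. The ends of *Ces1c* (chr8:93099165-93099191), *Ces1d* (chr8:93166255-93166281) and *Ces1f* (chr8:93256429-93256455) are on the minus strand, and those of *Ces2a* (chr8:104741390-104741416) and *Ces3a* (chr8:105058077-105058103) on the plus strand.
Ces1c: cctactgaacacACAGAACACAAAtga
Ces1d: tcccacagggaaCATGTTGAGCTCtga
Ces1f: ccccagccatacCACAATGAGCTGtga
Ces2a: tctcaggacaagCATGCAGAGCTGtag
Ces3a: agcaggaaagttCCAGAGGAGCTCtga

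The libraries held 30350002 to 35295611 counts, and levels are given below as TMM-scaled CPM, in which counts are put on a common scaled library total. A count of 3 equals 0.0974 to 0.119 such CPM in control libraries and 0.0763 to 0.0834 in g*Spns1*-cKO libraries. Hepatocyte markers were abundant in every library, with *Alb* (albumin) at 69350 ± 7160 CPM in controls and 41890 ± 3981 CPM in g*Spns1*-cKO livers (mean ± SD, n = 3 per group here and below). The targeted gene *Spns1* was at 35.9, 50.7 and 34.6 CPM in controls and at 17.9, 30.6 and 17.8 CPM in g*Spns1*-cKO livers. It fell by 0.87 on the log2 scale (SE 0.25, edgeR adjusted p = 0.0300) without overlap between the groups. These are counts over the whole gene, so loss of exon 3 itself was not measured. The *Spns1* difference did not pass without control replicate 2 (-0.68, edgeR adjusted p = 0.0785), without g*Spns1*-cKO replicate 1 (-0.74, edgeR adjusted p = 0.0910) or without g*Spns1*-cKO replicate 3 (-0.74, edgeR adjusted p = 0.0830). For several members g*Spns1*-cKO replicate 1 lay far from the other libraries of its group, and the fitted changes of *Ces1b*, *Ces1d*, *Ces3a* and *Ces3b* are also given without it. Of the 12917 genes whose mean reached 1 CPM, it was at least 5-fold above both others for 43 (0.333%) and at least 5-fold below both for 25 (0.194%). The same counts were 8 and 40 for replicate 2 and 12 and 28 for replicate 3.

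Of the 10 members, all of which passed the filter on low counts, 4 fell in g*Spns1*-cKO livers and 0 rose. Among the 15449 genes tested, 20.5% fell and 21.3% rose, and 41.8% passed the threshold of 0.05 on edgeR's adjusted p in either direction. *Ces1f*, *Ces1e*, *Ces2e* and *Ces2a* were the members that fell, each by more than 2-fold, a size that 5.29% of all genes tested reached in that direction with a passing p. *Ces3a* and *Ces3b* were far lower in all 3 g*Spns1*-cKO livers but varied so much between them that they did not pass. *Ces1b*, *Ces1c*, *Ces1d* and *Ces1g* overlapped between the groups. At an unadjusted p below 0.05, 5 members were counted, all lower, against 24.5% of all genes. DESeq2, which called 17.1% of all genes higher, and limma-voom, which called 21.1% higher, called no member higher. The median log2 fold change of the members was -1.26, against 0.014 for all genes tested.

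*Ces1f*, which encodes a second triacylglycerol hydrolase (TGH-2), was at 631, 457 and 556 CPM in controls and at 99.1, 91.0 and 68.8 CPM in g*Spns1*-cKO livers. Its groups lay far apart, and each g*Spns1*-cKO library was at least 5.53-fold below the control mean. The fitted change was -2.67 on the log2 scale (SE 0.18, edgeR adjusted p = 7.35e-06). *Ces1e* encodes egasyn, which retains beta-glucuronidase in the endoplasmic reticulum. It was at 374, 198 and 219 CPM in controls, where replicate 1 was the highest, and at 67.1, 93.5 and 85.9 CPM in g*Spns1*-cKO livers. All g*Spns1*-cKO values were below all control values, with a log2 fold change of -1.68 (SE 0.26, edgeR adjusted p = 0.00148).

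The Ces2 enzymes hydrolyse acylglycerols and prodrugs, and both Ces2 members fell by amounts close to each other. *Ces2a* was at 427, 311 and 289 CPM in controls and at 120, 156 and 171 CPM in g*Spns1*-cKO livers. The groups did not overlap, and the log2 fold change was -1.20 (SE 0.18, edgeR adjusted p = 0.000715). *Ces2e* was at 360, 178 and 245 CPM in controls, again highest in replicate 1, and at 123, 93.4 and 97.4 CPM in g*Spns1*-cKO livers. It fell by 1.32 on the log2 scale (SE 0.25, edgeR adjusted p = 0.00378), also without overlap. The ratio of *Ces2a* to *Ces2e* counts was 1.37 ± 0.32 in controls and 1.47 ± 0.43 in g*Spns1*-cKO livers, and its values overlapped.

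**Figure D1:**
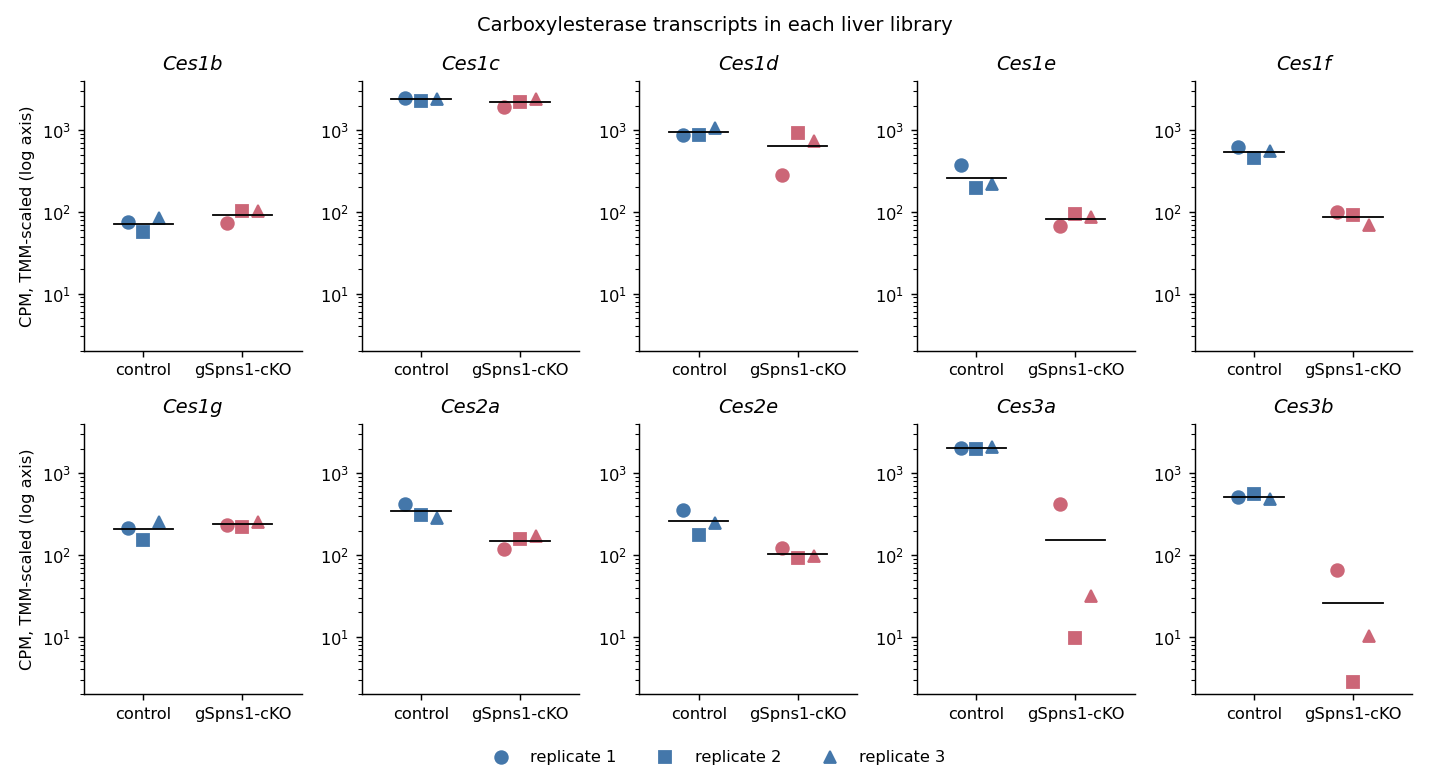
CPM (TMM-scaled, log axis) of each carboxylesterase member in the 3 control and 3 g*Spns1*-cKO libraries, with a marker shape per replicate number and a line at the group mean. The groups do not overlap for *Ces1e*, *Ces1f*, *Ces2a*, *Ces2e*, *Ces3a* and *Ces3b*, and g*Spns1*-cKO replicate 1 is far above the other two for *Ces3a* and *Ces3b* and below them for *Ces1d*.

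*Ces3a* and *Ces3b* encode closely related liver carboxylesterases. *Ces3a* was at 2045, 2015 and 2088 CPM in controls, with almost no spread, and at 420, 9.59 and 31.8 CPM in g*Spns1*-cKO livers. Every g*Spns1*-cKO library was below every control, by 4.88-fold, 214-fold and 64.6-fold against the control mean. The fitted log2 fold change was -3.74 with an SE of 1.64, and edgeR's adjusted p of 0.146 did not pass. *Ces3b* was at 519, 553 and 486 CPM in controls and at 65.8, 2.76 and 10.3 CPM in g*Spns1*-cKO livers. The libraries had the same order as for *Ces3a*, replicate 1 being the highest and replicate 2 the lowest, and the log2 fold change was -4.30 (SE 1.36, edgeR adjusted p = 0.0680). With these, 6 of the 10 members were lower without overlap, against 26.9% of all genes tested.

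For the Ces3 pair, g*Spns1*-cKO replicate 1 lay farthest from the rest of its group. In it, *Ces3a* was 43.8 and 13.2 times the level of replicates 2 and 3, and *Ces3b* was 23.8 and 6.39 times. Without it, *Ces3a* fell by 6.63 on the log2 scale (SE 0.71, edgeR adjusted p = 0.00305) and the log2 fold change of *Ces3b* was -6.31 (SE 0.78, edgeR adjusted p = 0.00709). Both were then among the 20.3% of all genes that fell. DESeq2's Wald test on all 6 libraries, which called 16.7% of all genes lower, also called both, with adjusted p = 0.0191 for *Ces3a* and 0.000506 for *Ces3b*, and limma-voom, which called 20.8% lower, passed only *Ces3b* of the pair (-5.42 on the log2 scale, adjusted p = 0.0321). The ratio of *Ces3a* to *Ces3b* counts was 3.94, 3.65 and 4.30 in controls and 6.38, 3.47 and 3.08 in g*Spns1*-cKO livers, so the ratio overlapped between the groups. *Spns1* itself was lowest in g*Spns1*-cKO replicates 1 and 3 and highest in replicate 2, in which the Ces3 pair was lowest. Hepatocyte markers summed to 63240 CPM in replicate 1 and to 73520 and 71430 CPM in replicates 2 and 3, and macrophage markers to 818, 557 and 587 CPM. The part of either in the Ces3 spread was not tested.

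The other Ces1 members did not pass. *Ces1c*, which encodes an esterase secreted into plasma, was the most abundant member, at 2497, 2259 and 2377 CPM in controls and 1898, 2221 and 2444 CPM in g*Spns1*-cKO livers. The groups overlapped (log2 fold change -0.12, SE 0.16, edgeR adjusted p = 0.572), and the sign was positive when libraries were scaled by their size only (0.32) or by the upper quartile (0.011). *Ces1d* was at 878, 877 and 1078 CPM in controls and at 285, 915 and 734 CPM in g*Spns1*-cKO livers. Replicate 1 of the latter was at 0.312 and 0.389 times the level of replicates 2 and 3, of which the former lay within the control range and the latter below it. The log2 fold change of *Ces1d* was -0.55 (SE 0.40, edgeR adjusted p = 0.320), and -0.20 (SE 0.16) without that library. Replicate 1 was thus the lowest g*Spns1*-cKO library for *Ces1d* and the highest for the Ces3 pair.

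*Ces1g* (Es-x), which also takes part in hepatic lipid hydrolysis, was at 215, 152 and 254 CPM in controls and at 236, 220 and 256 CPM in g*Spns1*-cKO livers. Its log2 fold change was 0.20 (SE 0.18, edgeR adjusted p = 0.392), and it passed as higher only with scaling by library size (0.65, edgeR adjusted p = 0.00819), under which 47.2% of all genes rose. *Ces1b*, the least abundant member in controls, was at 74.3, 56.1 and 83.7 CPM there and at 72.3, 102 and 102 CPM in g*Spns1*-cKO livers. Replicate 1 lay within the control range and the other two above it, with a log2 fold change of 0.37 (SE 0.18, edgeR adjusted p = 0.121). Without g*Spns1*-cKO replicate 1, *Ces1b* rose by 0.52 on the log2 scale (SE 0.16, edgeR adjusted p = 0.0223), and 7 members were then called, 6 lower and 1 higher, against 20.3% and 20.2% of all genes. It also passed as higher with scaling by library size, with upper-quartile scaling (26.6% of all genes higher) and with a filter of at least 1 count in any library (13.9% higher). The count ratio of *Ces1c* to *Ces1b* was 34.1 ± 5.95 in controls and 24.0 ± 2.27 in g*Spns1*-cKO livers, without overlap. Of the stretches of 75 bases in the *Ces1b* transcript, 4.50% also occurred in *Ces1c*, and of those of 150 bases 0%. *Ces1c* had far more counts (70209 against 2088 in control replicate 1). How far its reads contribute to the *Ces1b* values and to this ratio was not tested.

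**Figure D2:**
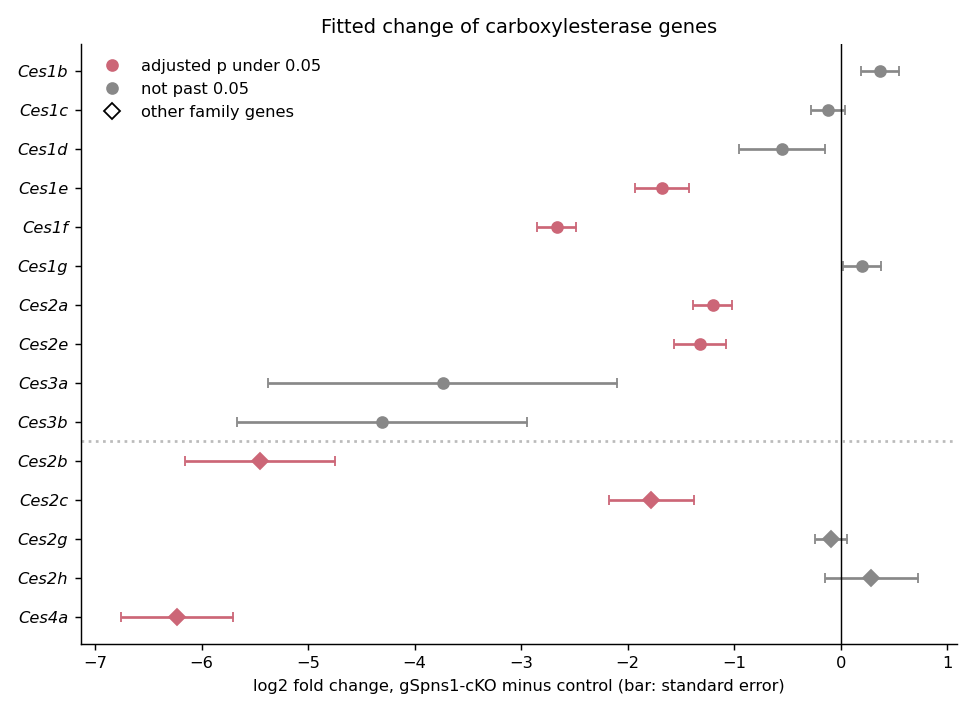
Log2 fold change (g*Spns1*-cKO minus control, edgeR) with its standard error for the 10 members (circles) and the 5 other carboxylesterase genes that could be tested (diamonds), coloured where the adjusted p is below 0.05. The largest standard errors among the members are those of *Ces3a* (1.64) and *Ces3b* (1.36), whereas *Ces1f* at -2.67 has an SE of 0.18.

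Counts were summed within each subfamily, since a read exchanged between members of a subfamily does not change the sum. The 3 Ces3 sums of controls were almost equal (2564, 2568 and 2573 CPM), and those of g*Spns1*-cKO livers were 486, 12.4 and 42.1 CPM. The mean difference was -5.35 on the log2 scale, -6.82 without g*Spns1*-cKO replicate 1 and -4.17 without replicate 2. The Ces2 members summed to 787, 489 and 533 CPM in controls and to 242, 249 and 268 CPM in g*Spns1*-cKO livers (difference -1.22). The Ces1 members summed to 4669, 3999 and 4568 CPM in controls and to 2657, 3643 and 3690 CPM in g*Spns1*-cKO livers. This difference of -0.42 was the smallest of the 3, and it was -0.27 without g*Spns1*-cKO replicate 1 and 0.026 with scaling by library size only. None of the sums overlapped, and the two-sided exact permutation test gave p = 0.1 for each, the smallest it can give with 3 against 3. All 10 members together took 0.616% to 0.694% of a control library's counts and 0.392% to 0.466% of a g*Spns1*-cKO library's.

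Ratios between subfamilies within a library do not depend on scaling. For each Ces1 count there were 0.549, 0.642 and 0.563 Ces3 counts in controls and 0.183, 0.00339 and 0.0114 in g*Spns1*-cKO livers. The mean log2 difference was -4.93, -6.55 without g*Spns1*-cKO replicate 1 and -3.68 without replicate 2. The Ces2 to Ces1 ratio was 0.169, 0.122 and 0.117 in controls and 0.0912, 0.0684 and 0.0726 in g*Spns1*-cKO livers (difference -0.80). Ces2 counts were fewer than Ces3 counts in all controls, at a ratio of 0.191 to 0.307, and in g*Spns1*-cKO replicate 1, at 0.499, but exceeded them 20.2-fold and 6.38-fold in replicates 2 and 3. The mean log2 difference of this ratio was 4.12, 5.63 without g*Spns1*-cKO replicate 1 and 2.96 without replicate 2. None of the 3 ratios overlapped between the groups, with an exact permutation p of 0.1 for each and of 0.1 after adjustment over the 3.

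**Figure D3:**
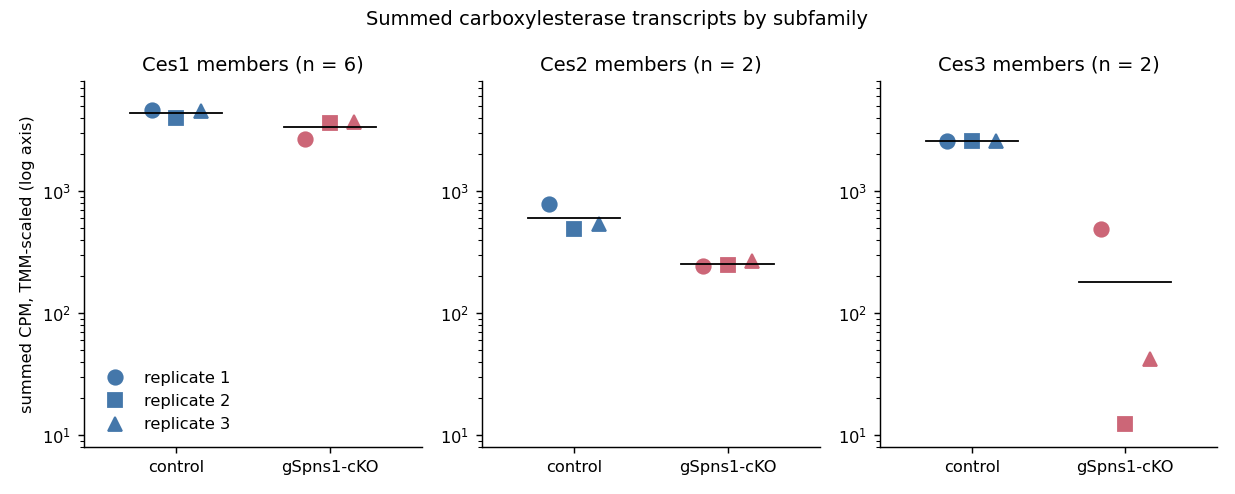
Summed CPM (TMM-scaled, log axis) of the 6 Ces1, 2 Ces2 and 2 Ces3 members in each library, with a line at the group mean. The Ces3 sums lie between 2564 and 2573 CPM in controls and spread from 12.4 to 486 CPM in g*Spns1*-cKO livers, while the Ces2 sums of g*Spns1*-cKO livers lie between 242 and 268 CPM.

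Levels of different genes were compared after division by gene length, as the share of each member in the sum over the 10. *Ces1c* supplied 33.5% ± 0.59 of this sum in controls and 59.0% ± 2.35 in g*Spns1*-cKO livers. *Ces3a* came second in controls, with 25.6% ± 1.44, and supplied 11.3%, 0.220% and 0.709% in the g*Spns1*-cKO livers. *Ces3b* went from 6.65% ± 0.80 to 0.704% ± 0.96 and *Ces1f* from 5.43% ± 0.53 to 1.68% ± 0.45. *Ces1g* went from 2.82% ± 0.60 to 6.27% ± 0.71 and *Ces1b* from 1.18% ± 0.19 to 2.93% ± 0.29, while their own CPM did not pass the test. These shares sum to a fixed total, so a lower share of one member raises the others.

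The order per kb in controls was *Ces1c*, *Ces3a*, *Ces1d*, *Ces3b*, *Ces1f*, *Ces2a*, *Ces1e*, *Ces2e*, *Ces1g* and *Ces1b*. Libraries of neighbours overlapped from *Ces3b* down to *Ces1g*, and the first 3 and the last were each separate. In g*Spns1*-cKO livers the order was *Ces1c*, *Ces1d*, *Ces1g*, *Ces2a*, *Ces3a*, *Ces1b*, *Ces2e*, *Ces1e*, *Ces1f* and *Ces3b*. Here *Ces1c*, *Ces1d* and *Ces1g* were each separate from the next gene, as was *Ces1e* from *Ces1f*, and the other neighbours overlapped. *Ces3a* had a mean of 780 CPM per kb in controls, and its 3 g*Spns1*-cKO libraries ranged from 3.65 to 160 CPM per kb.

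**Figure D4:**
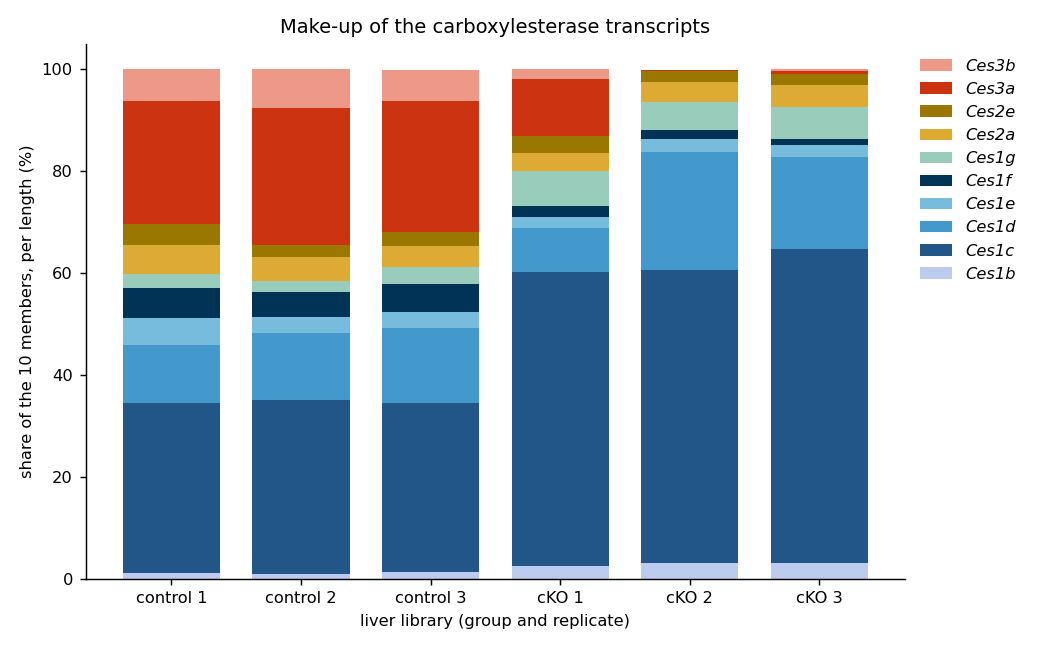
Share of each member in the sum of the 10 carboxylesterase members after division by gene length, as stacked bars in percent for each library. The *Ces1c* segment grows from a mean of 33.5% in controls to 59.0% in g*Spns1*-cKO livers, and the *Ces3a* segment is 11.3% in g*Spns1*-cKO replicate 1 and below 1% in replicates 2 and 3.

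Among the 10 remaining carboxylesterase genes of the table, 5 passed the filter on low counts, and 3 of these fell. *Ces4a* had 129, 201 and 92 counts in controls and 4, 0 and 3 in g*Spns1*-cKO livers (log2 fold change -6.23, SE 0.53, edgeR adjusted p = 2.71e-05). The summed counts were 81.4-fold higher in controls, with a 95% counting interval of 39.1 to 204. *Ces2b* had 53, 24 and 33 counts in controls and 2, 0 and 1 in g*Spns1*-cKO livers (-5.45, SE 0.71, edgeR adjusted p = 0.000248), and the ratio of its sums was 49.5 with an interval of 16.5 to 244. These intervals cover counting error only, since the counts of a group were pooled and the spread between mice is left out. The reads also carry no molecular identifiers. Unlike the Ces3 pair, both were at 4 counts or fewer in g*Spns1*-cKO replicate 1 as well.

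*Ces2c*, an acylglycerol and acylcarnitine hydrolase, was at 31.4, 15.7 and 24.2 CPM in controls and at 10.6, 4.82 and 5.39 CPM in g*Spns1*-cKO livers. It fell by 1.78 on the log2 scale (SE 0.40, edgeR adjusted p = 0.0149), and the adjusted p was 0.0620 without g*Spns1*-cKO replicate 3. *Ces2g* was at 51.3, 34.8 and 43.4 CPM in controls and at 43.8, 34.7 and 42.9 CPM in g*Spns1*-cKO livers, so that the groups overlapped. Its log2 fold change was -0.09 (SE 0.15, edgeR adjusted p = 0.647), and its sign was positive under 4 alternatives. *Ces2h* stayed below 1 CPM in every library (0.29, SE 0.44, edgeR adjusted p = 0.628). The remaining 5 were not tested. *Ces1a* had 3, 1 and 1 counts in controls and 3, 10 and 12 in g*Spns1*-cKO livers, *Ces1h* at most 6 counts in a library, *Ces2f* 1 count in all and *Ces5a* none. *Ces2d-ps* had 261 counts in control replicate 1 and at most 8 in any other library.

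**Figure D5:**
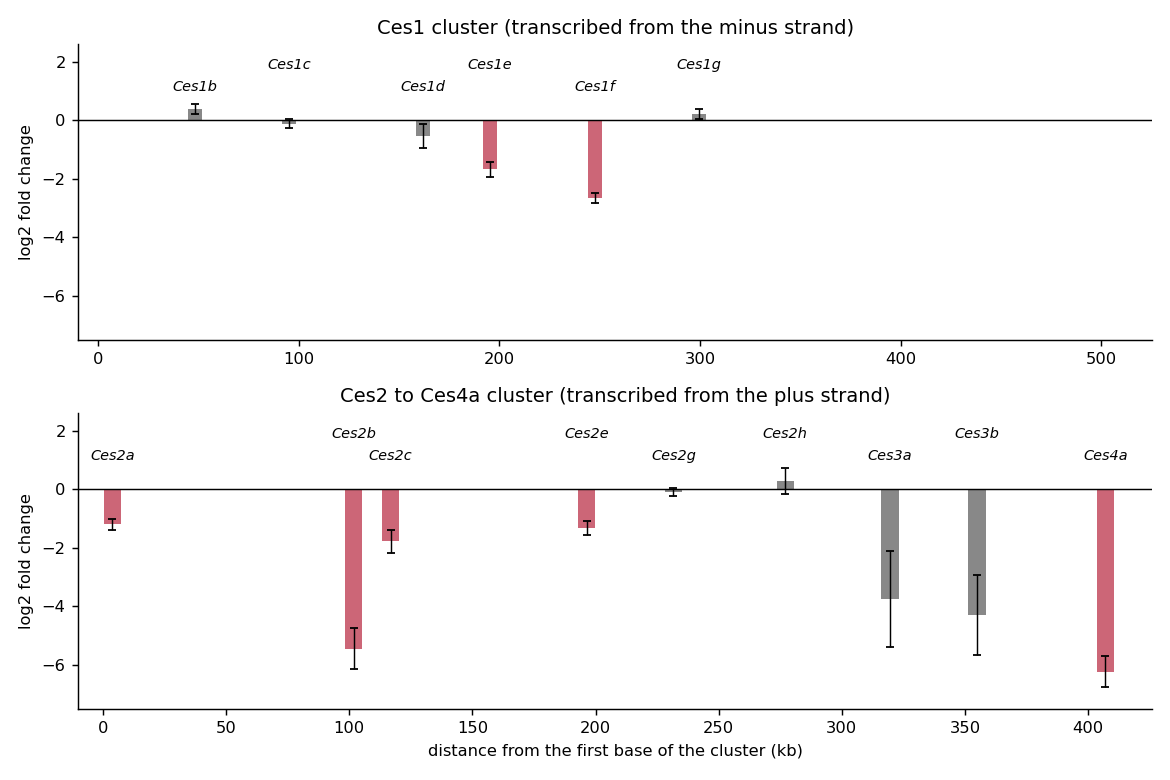
Log2 fold change (g*Spns1*-cKO minus control, edgeR, with standard error) of each tested carboxylesterase gene against the distance of its midpoint from the first base of its gene cluster in kb, coloured where the adjusted p is below 0.05. In the Ces1 cluster the genes that fell, *Ces1e* and *Ces1f*, are neighbours, with *Ces1d* and *Ces1g* on either side. In the other cluster the genes that fell run from *Ces2a* at the start to *Ces2e* near the middle, with *Ces4a* at the far end.

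Genes that fell and genes that did not pass lay next to each other along both clusters. *Ces1e* and *Ces1f* are adjacent, between *Ces1d* (-0.55) and *Ces1g* (0.20), which did not pass. In the other cluster, *Ces2e* (-1.32) fell, and the next tested genes, *Ces2g* and *Ces2h*, did not pass. *Ces3a* (-3.74) and *Ces3b* follow, which did not pass either, and then *Ces4a* (-6.23), which fell. For comparison, the 5 nearest tested protein-coding genes on each side of each cluster were taken, 20 in all, and 4 fell, 3 rose and 13 did not pass (median log2 fold change -0.12). Of all genes tested, 20.5% fell and 21.3% rose. Among those that passed, the largest changes were those of *Mmp2*, a matrix metalloprotease (2.67, SE 0.19, edgeR adjusted p = 8.75e-06), *Lpcat2*, a lysophospholipid acyltransferase (1.72), and *Pdp2*, a pyruvate dehydrogenase phosphatase subunit (-1.16).

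The 3 other tested genes inside the clusters were chosen for description after their values were seen. The pseudogene *Gm45727* lies between *Ces1e* and *Ces1f* on the same strand. It had 118, 67 and 99 counts in controls and 4, 5 and 3 in g*Spns1*-cKO livers (-4.97, SE 0.42, edgeR adjusted p = 2.38e-05), and none of its 498 stretches of 75 bases occurred in a member. *Gm45909*, within *Ces1d* on the same strand, had 115, 116 and 89 counts in controls and 31, 139 and 147 in g*Spns1*-cKO livers, low in replicate 1 as *Ces1d* was. *Gm45724*, within *Ces3a* on the opposite strand, had 34, 23 and 33 counts in controls and 9, 0 and 2 in g*Spns1*-cKO livers, the same order as *Ces3a*. The sources used here do not say whether counting used strand, so reads of such overlapping genes cannot be told apart.

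How far reads could be shared was judged from the annotated transcripts. Of all stretches of 75 bases, 18.3% of *Ces3a* and 15.4% of *Ces3b* occurred in the other, and 14.8% of *Ces2a* in *Gm7208*. The share was 6.73% for *Ces1c*, 4.50% for *Ces1b*, 1.05% for *Ces1e* and 0.343% for *Ces2e*, and 0% for *Ces1d*, *Ces1f* and *Ces1g*. At 150 bases only *Ces2a* (4.03%), *Ces3a* (2.37%) and *Ces3b* (2.00%) still shared any. These are shares of stretches, not of counts, and do not bound the error of a single value. *Ces3b* had fewer counts than *Ces3a* (14598 against 57494 in control replicate 1), so exchanged reads would weigh more on it. A read exchanged between them leaves their sum unchanged. Multimapping settings are not given in the sources used here. If shared reads were left uncounted, they are missing from the Ces3 sum as well. *Gm7208*, *Ces2g* (shared with *Ces2e*) and *Gm45910* (shared with *Ces1c*) are not in the sums, so reads exchanged with them can change the Ces2 and Ces1 sums.

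RefSeq start sites (GRCm38) gave 8 promoters for 7 of the members, from 250 bases before to 50 after the start, and none was in the table for *Ces1d*, *Ces1f* or *Ces3a*. Motifs of liver transcription factors were searched on both strands. The letters TTCNNNGAA (STAT) were in 8.30% of all 32851 promoters, TGACNNNGC (NRF2) in 12.4% and TTGCGCAA (C/EBP) in 0.183%, and none of these was in a member's promoter. TGACCT, a nuclear receptor half-site held by 16.3% of all promoters, was in that of *Ces2a*, 226 bases before the start. GTTAAT, an HNF1 half-site held by 7.10%, was in that of *Ces3b*, 56 bases before the start. The upstream sequence of *Ces3b* (chr8:105083635-105083754, plus strand) is shown because this gene had the largest fitted change among the members, with GTTAAT in capitals.
Ces3b: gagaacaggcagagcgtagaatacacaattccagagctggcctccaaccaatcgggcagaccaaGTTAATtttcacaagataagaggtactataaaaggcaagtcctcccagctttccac

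Other enzymes that act on the same lipids were taken from lists of the pathway. Of 18 neutral lipid hydrolases and cofactors, all tested, 10 fell, 1 rose and 7 did not pass (median log2 fold change -0.39). *G0s2*, an inhibitor of adipose triglyceride lipase, fell by 3.60 (SE 0.50, edgeR adjusted p = 0.00391). Endothelial lipase *Lipg* (-2.43) and hormone-sensitive lipase *Lipe* (-1.85) also fell. The one that rose was lipoprotein lipase *Lpl*, from 13.4 ± 0.62 to 295 ± 67.5 CPM (4.46, SE 0.18, edgeR adjusted p = 2.84e-07). Lysosomal acid lipase *Lipa* was at 214 ± 22.9 and 197 ± 36.3 CPM (edgeR adjusted p = 0.554), and the phospholipase *Ddhd2* at 39.8 ± 4.86 and 37.3 ± 12.3 CPM (edgeR adjusted p = 0.763).

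Of 19 genes of triglyceride synthesis and VLDL assembly, 9 fell, 1 rose and 9 did not pass (median -0.45). The lipid droplet genes *Cidec* (-3.34, SE 0.49, edgeR adjusted p = 0.00406) and *Plin2* (-1.11) fell, as did *Cideb* (-0.90), which acts in VLDL lipidation. *Tm6sf2*, also of VLDL lipidation, rose by 0.70 (SE 0.16, edgeR adjusted p = 0.00728). By the mean over all 6 libraries, the most abundant genes that did not pass were *Lpin2* (605 ± 74.3 and 514 ± 28.0 CPM) and *Hsd17b13* (539 ± 72.2 and 572 ± 61.2 CPM). Of 15 other esterases and hydrolases of phase I metabolism that could be tested, of 16 listed, 8 fell and 1 rose (median -0.44). The acyl-CoA thioesterase *Acot1* (-4.01), soluble epoxide hydrolase *Ephx2* (-1.51) and microsomal epoxide hydrolase *Ephx1* (-0.82) fell, and butyrylcholinesterase *Bche* rose from 101 ± 14.6 to 146 ± 21.2 CPM (0.54, SE 0.15, edgeR adjusted p = 0.0140). *Pafah2* and *Acot4* were the most abundant that did not pass.

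Of 18 transcription factors and cofactors described as regulators of carboxylesterase genes, 6 fell, 2 rose and 10 did not pass (median -0.08). *Cebpa*, a factor of the mature hepatocyte, fell from 538 ± 54.0 to 203 ± 47.5 CPM (-1.41, SE 0.18, edgeR adjusted p = 0.000213). *Rxra*, the common partner of nuclear receptors, fell by 0.87 (SE 0.15, edgeR adjusted p = 0.00147), and the liver X receptor *Nr1h3* by 0.61. *Nr0b2*, the corepressor SHP, rose by 1.20 (SE 0.22, edgeR adjusted p = 0.00338) and *Foxa2* by 0.49. *Hnf4a* was at 583 ± 101 and 437 ± 53.9 CPM (-0.42, edgeR adjusted p = 0.0666) and *Srebf1* at 322 ± 59.0 and 406 ± 155 CPM (0.34, edgeR adjusted p = 0.332), neither past the threshold. No relation of these genes to the members was tested.

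Markers of liver cell types moved with the group. Of 7 hepatocyte markers, 5 fell and 0 rose (median -0.73), with a summed level of 108100 to 118400 CPM in controls and 63240 to 73520 CPM in g*Spns1*-cKO livers. On the same log2 scale, the median of the members was -1.26 and *Ces1f* was at -2.67. Single hepatocyte markers ranged from -0.009 (*Ahsg*) to -2.00 (*Serpina1c*). Over 6 lists of other liver cells (macrophages, stellate cells, cholangiocytes, endothelium, neutrophils and lymphocytes), 28 of 37 tested markers of 39 listed rose and 0 fell (median 1.46). Macrophage markers, for example, summed to 143 to 216 CPM in controls and 557 to 818 CPM in g*Spns1*-cKO livers, with *Lyz2* (2.33) and *Clec4f* (1.14) the most abundant, both higher. Of 4 erythroid genes, listed apart from these, 2 rose, 1 did not pass and *Alas2* fell by 3.17 (SE 0.33, edgeR adjusted p = 0.000772). In whole liver, fewer hepatocytes and less RNA per hepatocyte cannot be told apart for any of the members. Of 7 pericentral hepatocyte genes 2 fell, and of 7 periportal genes 5 fell, with 0 rising in either. Of 5 pancreas and adipocyte genes, *Cel* and *Prss2* had no counts and *Pnlip* and *Adipoq* were near 0. The fifth, the elastase *Cela1*, was at 31.1 ± 6.19 CPM in controls and 10.1 ± 0.40 CPM in g*Spns1*-cKO livers and fell by 1.62 on the log2 scale (SE 0.15, edgeR adjusted p = 3.98e-05). The Y-linked *Ddx3y* (66.2 ± 8.84 and 63.6 ± 1.87 CPM) and *Eif2s3y* (50.1 ± 11.2 and 53.7 ± 3.12 CPM) were present in every library of both groups. *Xist*, made from the inactive X chromosome of females, had 3, 0 and 1 counts in controls and 2, 1 and 5 in g*Spns1*-cKO livers. By these transcripts all 6 livers were male, although the labels do not give the sex.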

How the data were processed

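Liver RNA-Seq libraries of 3 control and 3 g*Spns1*-cKO mice, 1 per animal, were grouped by the sample labels. Per the labels and processing notes of the submitters, poly-A RNA was sequenced on an Illumina platform, and the tools named are fastp, HISAT2 2.0.5 and featureCounts 1.5.0-p3, with mm10 as the genome. Strand and multimapping settings are not given in the sources used here. The authors deposited whole-number counts per gene, FPKM values, which divide counts by gene length and a library total, and the length of each gene. The columns of the authors' own comparison (group means, fold change and p-values) were not used.

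The tests used edgeR 4.0.16 under R 4.3.3. The filterByExpr rule kept 15449 of 54532 genes. Libraries were scaled by TMM and groups compared by the quasi-likelihood test (robust) with no covariate. Benjamini-Hochberg adjustment ran over all genes tested, with a threshold of 0.05. CPM are TMM-scaled. Sums and ratios were compared by two-sided exact permutation tests. Alternatives were other scalings (library size, upper quartile, DESeq2 size factors), DESeq2 1.42.0, limma-voom (limma 3.58.1), other filters, stricter calls (0.01, or 2-fold besides 0.05), the replicate number as a block, omission of each library, counts per kb for ratios and deposited FPKM for shares. The script was tested on simulated counts.

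Coding sequences, exons and stretches of 75 or 150 bases came from GENCODE M21 (GRCm38), in which all 20 carboxylesterase genes had the deposited IDs and coordinates, and promoters from RefSeq. Protein sequences were not used here, so identities are of coding nucleotides, aligned globally in Biopython 1.88. Named genes were all members, all tested carboxylesterase genes, and from each pathway list the 3 most changed in each direction and up to 2 abundant ones that did not pass. The members and lists were chosen with earlier results of these data known. Beyond a number per liver, the labels do not describe the animals, so p-values measure the spread between these libraries.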

Additional observations from a re-analysis of the deposited data

How the results depend on the processing

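The calls of *Ces1e*, *Ces1f*, *Ces2a* and *Ces2e* as lower were kept under every alternative tried. The number of members called lower was 4 to 6 when 1 library was left out, and the number called higher, 0 with all libraries, was 0 to 1. It was 2 with scaling by library size only, 1 with upper-quartile scaling and 1 with a filter of at least 1 count in any library. Scaling by library size moved the median of all genes tested to 0.46 and upper-quartile scaling to 0.14, from 0.014. *Spns1* was at -0.43 (edgeR adjusted p = 0.213) and -0.74 (edgeR adjusted p = 0.0635) under these scalings, and from -1.18 to -0.68 with 1 library left out. *Ces1c* was at 0.32 and 0.011 under the same scalings and *Ces2g* at 0.35 and 0.034, and *Ces2g* ranged from -0.23 to 0.035 with 1 library left out, positive without control replicate 1 (0.035) or g*Spns1*-cKO replicate 2 (0.0053). With library size only, the Ces1 sum differed by 0.026 and the Ces2 sum by -0.78.

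Under library size only, the hydrolase list had 3 genes higher, the VLDL list 3 lower and 5 higher, the esterase list 2 lower and 2 higher, and the regulators 2 lower and 9 higher. Of all genes tested, 47.2% were higher and 6.28% lower under this scaling. Under upper-quartile scaling, the VLDL list had 2 higher, the esterases 5 lower and the regulators 4 higher, against 26.6% of all genes higher and 14.5% lower. With 1 library left out, 1 to 2 hydrolases were higher (2 without control replicate 1) and 1 to 2 VLDL genes (2 without control replicate 1 or g*Spns1*-cKO replicate 2). Then 5 to 7 esterases were lower (5 without g*Spns1*-cKO replicate 3) and 0 to 2 higher (0 without control replicate 2, 2 without g*Spns1*-cKO replicate 1). Likewise 1 to 3 regulators were higher, with 1 without control replicate 2 or g*Spns1*-cKO replicates 2 or 3. In these fits 15.0% to 20.2% of all genes were higher and 13.5% to 20.3% lower.

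The labels do not say whether libraries with the same replicate number were paired. Correlations of deviations between same-numbered libraries were 0.0371, 0.0331 and -0.0279, which is too few values to settle it. With the replicate number as a block, the SE went from 0.255 to 0.112 for *Spns1* and from 0.247 to 0.151 for *Ces2e*. It went the other way for *Ces1e* (0.255 to 0.287) and *Ces2a* (0.184 to 0.213). With the replicate block 6100 genes passed in place of 6452, the same 4 members were lower, and the VLDL list had 2 genes higher. The wide spread of *Ces3a* and *Ces3b*, not their depth, limited their test, whereas *Ces2b* and *Ces4a* rested on few counts.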
